A study of Mus musculus with 107 samples.

Results

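The genes described here are 7 members of the machinery that carries cholesterol out of brain cells and between them: Apoe, Clu, Lcat, Abca1, Abcg1, Cyp46a1 and Lrp1. They were matched by symbol in the array annotation. Each gene was represented by the probe set that carries this symbol alone and has the highest mean log2 value over all arrays, 76 of them TRAP arrays and 31 of unbound RNA, as described below. The members are 7 of 18193 genes represented in this way, and all 7 were found. The identifiers are 1432466_a_at for Apoe, 1437458_x_at for Clu, 1417043_at for Lcat, 1421840_at for Abca1, 1423570_at for Abcg1, 1417709_at for Cyp46a1 and 1448655_at for Lrp1.

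The brain makes its own cholesterol, because plasma lipoproteins do not cross the blood-brain barrier. Astrocytes are known as the main source of lipoprotein particles in the brain: ABCA1 and ABCG1 move cholesterol and phospholipid across the membrane onto apolipoprotein E, LCAT esterifies the cholesterol within the particle, and endocytic receptors, LRP1 among them, take the particle up into other cells. Clusterin, also called apolipoprotein J, is a second abundant apolipoprotein of the brain, and CYP46A1 is the enzyme, known chiefly from neurons, that hydroxylates cholesterol to 24S-hydroxycholesterol, the form in which the brain sheds most of its surplus.

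The study used TRAP, the affinity purification of translating ribosomes: a transgene on a bacterial artificial chromosome (BAC) labels the ribosomes of one cell type, and the mRNA they hold is captured and measured, as is the RNA left behind, called unbound here. All samples, the unbound ones included, came from BAC transgenic mice of the central nervous system, with no other treatment and no age named in the labels. The 17 neuron populations were cortical Cck+ (driver cck), Cort+ (cort) and Pnoc+ (pnoc) neurons and those of layers 5a (etv1), 5b (glt25d2) and 6 (ntsr1), striatal Drd1+ (drd1) and Drd2+ (drd2) medium spiny neurons, the chat-driven cholinergic neurons of striatum, basal forebrain and spinal cord and motor neurons of brainstem, and cerebellar Golgi (grm2), unipolar brush (grp), stellate and basket (lypd6), granule (neurod1) and Purkinje (pcp2) neurons. The 7 glial populations were astrocytes (aldh1l1), mature oligodendrocytes (cmtm5) and mixed oligodendroglia (olig2), each of cortex and of cerebellum, and Bergmann glia (septin4) of cerebellum. Astrocytes and Bergmann glia are called astroglia below, and both olig2 and cmtm5 populations oligodendroglia. Each population had 3 TRAP arrays, but cortical astrocytes had 4, from lines JD130 and JD133, and Purkinje neurons had 6, from lines DR166 and DR168. Every other population came from a single transgenic line. Within a tissue, a population is thus defined by where its driver is active and cannot be told apart from its line. Lines were also shared between tissues. The chat-driven populations all came from the same line. Mature oligodendrocytes of cortex and of cerebellum shared a line, as did mixed oligodendroglia of both tissues. Cerebellar astrocytes came from JD130, which was also used for cortical astrocytes. Populations that share a line are not independent of each other. Unbound RNA was measured on 9 cortical, 7 cerebellar and 6 striatal arrays, while basal forebrain, brainstem and spinal cord had 3 arrays each. The series text calls the replicates independent TRAP preparations.

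Values below are log2 of the deposited intensities after each group was shifted to the same mean of 18 hybridization controls, and a level under 6, an intensity of 64, was treated as not expressed. Before that shift the controls' group mean ran from 10.13 to 12. Each of the 30 groups was background-corrected and normalized on its own by the authors, so group and normalization cannot be told apart. Between 25.8% and 41.6% of the values of an array lay at its minimum. Of 175 combinations of a member with a group of 3 arrays, 26 had the same value on all 3 arrays (within 1e-09 log2 units), 9 of them at a level of at least 6, which narrows the spread behind the array-level tests. Marker genes of the labelled cell types were expressed in them. The mean of 10 astrocyte genes was 13.05 to 13.53 in astroglia, that of 9 oligodendrocyte genes was 13.37 to 14.24 in oligodendroglia, and that of 8 neuronal genes was 11.11 to 14.13 in neurons. The neuronal genes still stood at 8.65 to 11.36 in the glial populations, a range that overlaps that of neurons. In neuron populations their mean difference from unbound RNA ran from -1.96 to 1.05. The lowest was in Pnoc+ neurons, with 0 of 8 genes above unbound RNA, and the highest in layer 5a neurons, with 7 of 8. The neuronal list thus does not set every neuron population apart from glia. In bulk RNA, fewer cells of a type and less RNA per cell cannot be told apart. A probe set's level is compared below only with itself in other groups, never with another gene's.

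Promoter sequence is given for 3 members whose class differences were large, so that the regulatory region stands beside the values. RefSeq promoters on GRCm38.p6 matched 5 of the 7 members: Abca1, Apoe, Cyp46a1, Lcat and Lrp1. In the 250 bases before each start, 4 motifs were searched on both strands: the GC box GGGCGG, found in 32.7% of 32851 promoters, the TATA box TATAAA in 12.4%, the E-box CACGTG in 6.02%, and an element of the liver X receptor (LXR), a nuclear receptor for oxysterols, in 15 promoters or 0.0457%. The LXR element searched was TGACC, any 5 bases and TAACC, a direct repeat (DR4) written after the element known from the Abca1 promoter, so its presence there is no finding. In the Abca1 promoter the matches did not overlap each other. Abca1 lies on chromosome 4 on the minus strand, and chr4:53159989-53160145 covers bases 250 to 94 before its start, with a GC box and an E-box in capitals. The 30 bases at chr4:53159940-53159969 hold its LXR element, 67 to 53 bases before the start, again in capitals. The Lcat stretch at chr8:105943403-105943589, on the minus strand, held none of the 4 motifs. The Cyp46a1 stretch at chr12:108334066-108334267, on the plus strand, has 3 of the 4 GC boxes of that promoter in capitals.
Abca1: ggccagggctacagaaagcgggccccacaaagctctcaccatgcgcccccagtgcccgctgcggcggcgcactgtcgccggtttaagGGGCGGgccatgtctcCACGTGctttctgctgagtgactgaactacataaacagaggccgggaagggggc
Abca1 DR4 site: cagcgttTGACCGGTAGTAACCccggcgct
Lcat: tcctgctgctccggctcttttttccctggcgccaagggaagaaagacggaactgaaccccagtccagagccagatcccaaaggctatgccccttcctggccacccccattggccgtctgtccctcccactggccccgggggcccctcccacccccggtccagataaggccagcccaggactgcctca
Cyp46a1: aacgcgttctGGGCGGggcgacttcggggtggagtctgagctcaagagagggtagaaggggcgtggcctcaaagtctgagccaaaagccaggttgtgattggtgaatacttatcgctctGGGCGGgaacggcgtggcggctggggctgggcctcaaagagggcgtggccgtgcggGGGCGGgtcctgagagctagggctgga
Abca1 also held a second GC box and a TATA box 29 to 24 bases before its start. The GC content of the 250 bases was 61.6% for Abca1, 57.2% for the first of 3 Apoe starts, which held none of the 4 motifs, 67.6% for Cyp46a1, 60.8% for Lcat and 67.2% for Lrp1, which held 1 GC box. A match describes letters and is no evidence of binding.

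The question put to the 24 TRAP populations was whether these genes differ between glia and neurons. Apoe and Lcat were higher in glia, and Cyp46a1 was lower. For the class comparisons the population mean was the replicate, in a limma fit over 24 means with 17 neuronal, 3 astroglial and 4 oligodendroglial populations. Populations that share a line were counted as separate replicates, and the fit took no account of the line. Calls needed a 2-fold difference and, after Benjamini-Hochberg adjustment over every gene tested, a p under 0.05. A gene also had to lie above unbound RNA, on average, on the side where it was higher. This requirement left 3 of the 7 members in the comparison of glia with neurons, and all 3 were called, where 34.3% of all genes tested were called. A gene enters that test through the side where it is high, so the count of 3 of 3 is no support in itself. Apoe averaged 13.16 in glia and 8.71 in neurons, a difference of 4.45 (SE 1.17, 95% interval 2.05 to 6.84, adjusted p = 0.00404, limma), at least 18.4-fold. Lcat averaged 9.44 and 4.51, a difference of 4.94 (SE 1.05, 2.78 to 7.10, adjusted p = 0.000727), at least 6.75-fold. "At least" marks a fold whose lower side held population means under 6, which were raised to 6 for it. Cyp46a1 averaged 7.38 in glia and 9.90 in neurons, a difference of -2.53 (SE 0.86, -4.29 to -0.76, adjusted p = 0.023), at least 5.4-fold lower in glia. The median difference of all genes tested was 0.28. The Cyp46a1 call was lost without cerebellar astrocytes (adjusted p = 0.0689) or Bergmann glia (0.0518) and under a test against a 2-fold bound (0.217). Of 23 alternatives, Cyp46a1 could be tested in 17 and was called in 14. In the other 6, among them no further scaling and leaving out layer 5a, Golgi, stellate and basket or Purkinje neurons, it no longer met the requirement. Apoe and Lcat kept their calls in all 23.

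The 4 members that did not meet the requirement were examined in the same fit with neither the requirement nor the expression minimum, over all 18193 genes. Abca1 was then 2.58 higher in glia (SE 0.75, 95% interval 1.04 to 4.12, adjusted p = 0.0169, limma). Abcg1 was lower in glia by -2.14 (SE 0.49, -3.13 to -1.15, adjusted p = 0.00245). For Clu the difference was 0.25 (-0.74 to 1.25, adjusted p = 0.702), and for Lrp1 it was -0.12 (-1.66 to 1.42, adjusted p = 0.911). These intervals leave room for differences of over 2-fold in either direction for Lrp1 and of at most 1.25 log2 units for Clu.

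**Figure D1:**
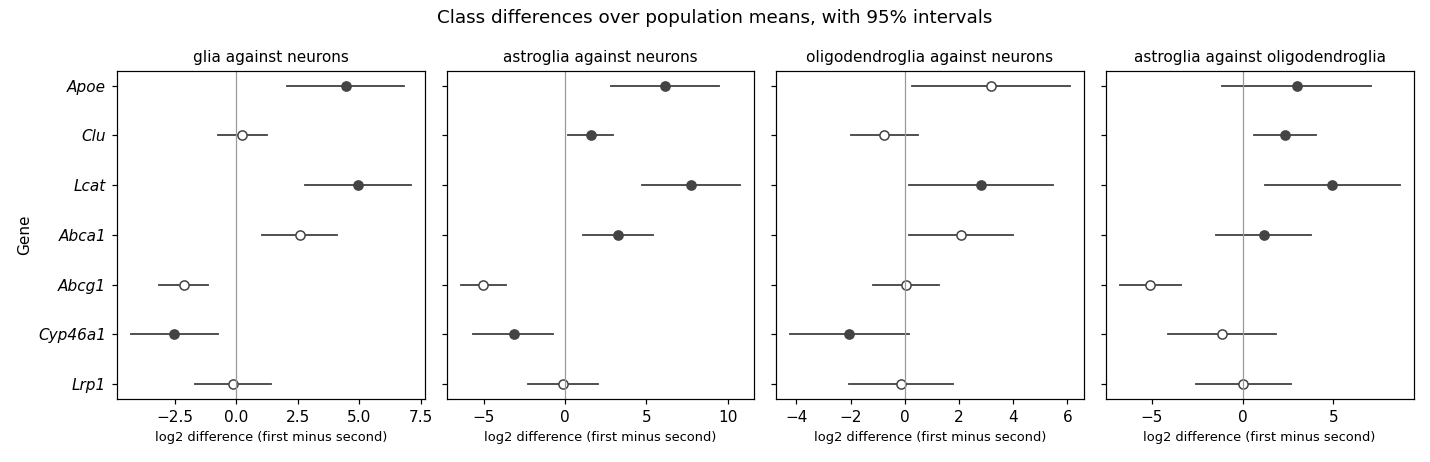
Differences in log2 level between cell classes for each of the 7 members, with 95% intervals. Filled points were tested with the requirement of TRAP over unbound RNA, and open points are values without it. Apoe and Lcat lie to the glial side in the comparison of glia with neurons (4.45 and 4.94), Cyp46a1 to the neuronal side (-2.53), and Clu and Lrp1 have intervals that span 0.

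The glial classes were then taken apart. In astroglia against neurons, 4 of 5 members tested were called, where 30.9% of all genes tested were called and the median difference of all genes was 0.54. Lcat was 7.76 higher (SE 1.47, adjusted p = 0.000338, limma), at least 47.8-fold, and Apoe 6.15 higher (SE 1.63, adjusted p = 0.00558), at least 60-fold. Abca1 was 3.24 higher (SE 1.04, adjusted p = 0.0191), at least 5.64-fold, and Cyp46a1 3.17 lower in astroglia, written as -3.17 (SE 1.2, adjusted p = 0.0453). Clu, at 1.59 (SE 0.68, 95% interval 0.20 to 2.98), missed the threshold with an adjusted p of 0.0754. The Abca1 call was lost without cerebellar astrocytes (0.0765) or Bergmann glia (0.0699), and the Cyp46a1 call in 7 of 13 alternatives, among them without cerebellar astrocytes (0.234) and without Bergmann glia (0.146). Abca1 met the requirement on average, though among the 3 astroglial populations it lay above unbound RNA only in cortical astrocytes. Abcg1 did not meet the requirement. With neither requirement nor minimum it was lower in astroglia than in neurons by -5.04 (SE 0.68, -6.43 to -3.66, adjusted p = 6.8e-06), at least 11.5-fold.

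No member was called between oligodendroglia and neurons. Of 2 members tested none passed, where 21.8% of genes were called: Lcat differed by 2.82 (95% interval 0.15 to 5.48, adjusted p = 0.118, limma) and Cyp46a1 by -2.05 (-4.23 to 0.14, adjusted p = 0.166). Without unipolar brush neurons 1 member was called, but the share of all genes called in that fit is not given here. Apoe did not meet the requirement. With neither requirement nor minimum it differed by 3.17 (0.25 to 6.09, adjusted p = 0.218). In astroglia against oligodendroglia none of 4 members was called, where 11.3% of genes were. The differences were 2.98 for Apoe (-1.14 to 7.10, adjusted p = 0.37), 2.34 for Clu (0.62 to 4.05, adjusted p = 0.0699), 4.94 for Lcat (1.23 to 8.65, adjusted p = 0.0774) and 1.17 for Abca1 (-1.46 to 3.79, adjusted p = 0.609). Each interval reaches beyond 1 log2 unit. Abcg1, with neither requirement nor minimum, was lower in astroglia than in oligodendroglia by -5.08 (-6.77 to -3.39, adjusted p = 0.000325), at least 11.8-fold.

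Among the carriers, Apoe encodes the apolipoprotein that forms the core protein of astrocyte particles. It was high in all astroglia: the 4 cortical astrocyte arrays read 15.22, 14.86, 15.10 and 15.00, the cerebellar astrocyte arrays 14.68, 14.88 and 14.96, and the Bergmann arrays 14.94, 14.57 and 14.64. The ranges of these 3 groups overlapped. Oligodendroglia followed with population means of 11.07 to 12.92. In neurons Apoe spanned nearly the whole scale of the array. Layer 5a neurons read 14.78, 14.93 and 14.76, inside the astroglial range, and unipolar brush neurons 13.57, 13.89 and 13.75. Golgi neurons read 2.82 on all 3 arrays, the lowest group, and Purkinje neurons ran from 4.53 to 5.30 over 6 arrays. In all, 12 of 17 neuron populations lay below every glial population, none lay above every glial one, and 14 of 17 reached 6. Of 20 neighbouring pairs in the order of populations at or above 6, 4 were separated by more than their array ranges.

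**Figure D2:**
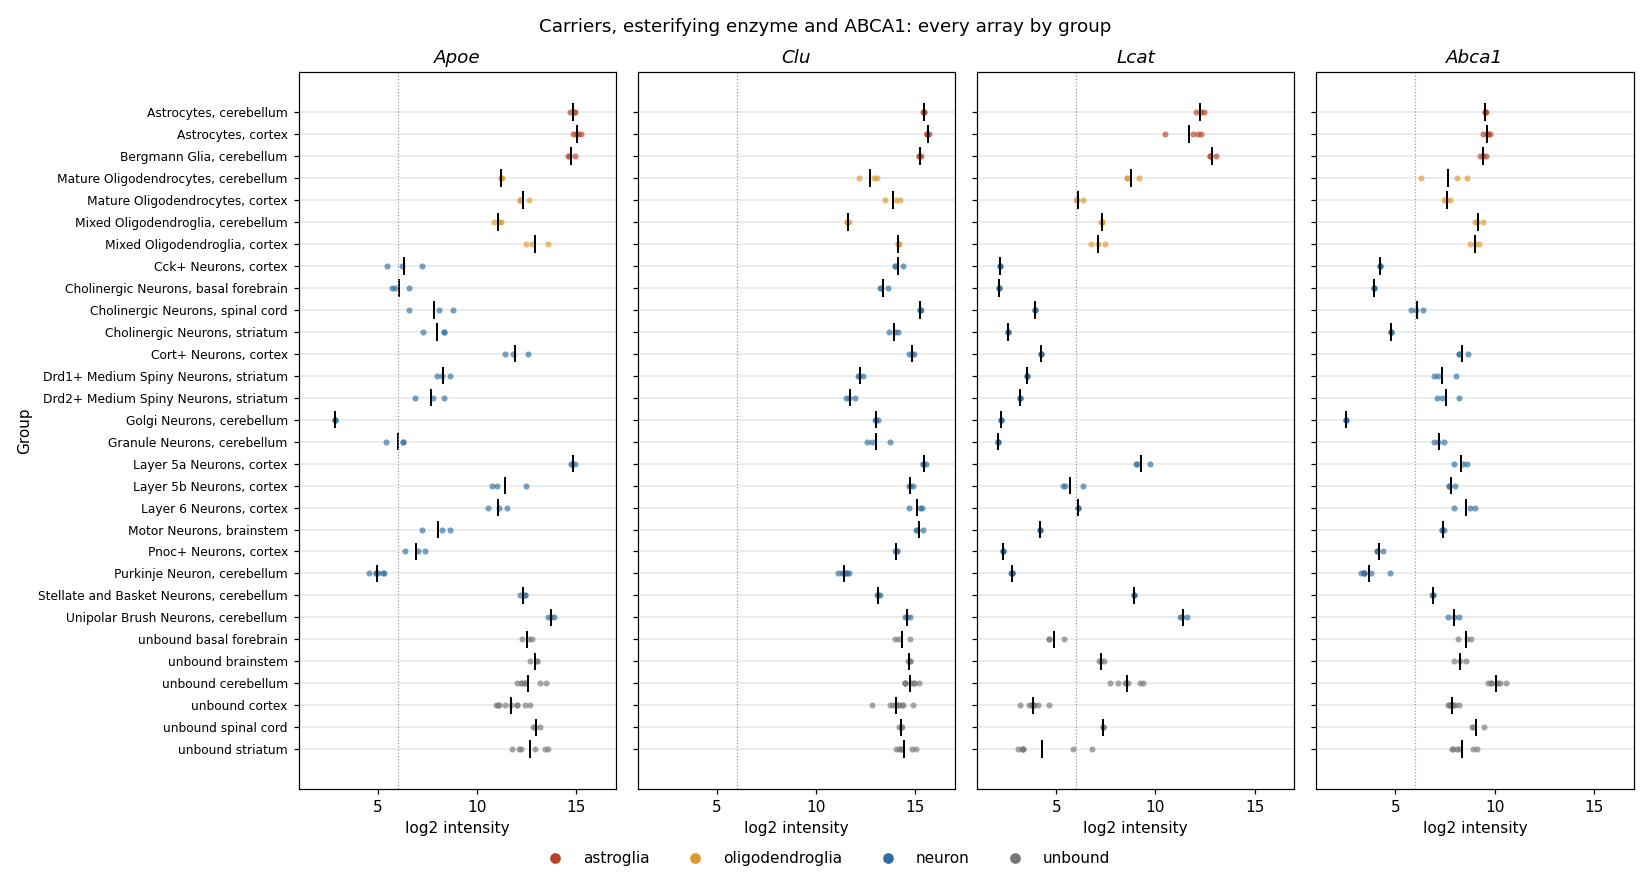
Log2 level of Apoe, Clu, Lcat and Abca1 on every TRAP and unbound array, ordered by class, with 1 point per array and a black tick at the group mean. The dotted line marks the minimum of 6. Astroglia sit at 14.72 to 15.05 for Apoe and 11.70 to 12.85 for Lcat, and most neuron populations lie far lower, while Clu is above 11 in all 24 populations. For Abca1 astroglia lead the TRAP populations (9.42 to 9.61).

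Clu encodes clusterin, a secreted chaperone and lipid carrier. On this probe set it was above 11 in all 24 populations. Cortical astrocytes read 15.59, 15.68, 15.59 and 15.58, but layer 5a neurons read 15.38, 15.37 and 15.51, and cholinergic neurons of spinal cord 15.25, 15.26 and 15.25, between cerebellar astrocytes at 15.41 and Bergmann glia at 15.23. The lowest groups were Purkinje neurons, with a lowest value of 11.12, a median of 11.43 and a highest of 11.65, and mixed oligodendroglia of cerebellum at 11.55, 11.55 and 11.64. All 24 population means thus lay between 11.42 and 15.61. Neurons overlapped both glial classes: 7 of 17 neuron populations lay above every oligodendroglial one, and 15 lay below every astroglial one. The other 3 probe sets for Clu ranked the populations similarly (r of 0.941 to 0.989 over 24 population means), but the spread depended on the probe set: 1 of them ran from 6.52 to 14.16, with class means of 13.42 in astroglia, 9.73 in oligodendroglia and 10.85 in neurons.

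Lcat encodes the enzyme that esterifies particle cholesterol, and it was high in astroglia and under the minimum in most neurons. Bergmann glia read 13.06, 12.75 and 12.73, cerebellar astrocytes 12.02, 12.31 and 12.43, and cortical astrocytes 11.90, 10.49, 12.28 and 12.12. Bergmann glia lay above both astrocyte groups without overlap, but the difference from cerebellar astrocytes, 0.60, did not pass the test (adjusted p = 0.261, limma). Oligodendroglial means ran from 6.12 in mature oligodendrocytes of cortex to 8.78 in those of cerebellum. Only 4 of 17 neuron populations reached 6. Unipolar brush neurons read 11.25, 11.60 and 11.35, within the range of cortical astrocytes. Layer 5a neurons read 9.07, 9.70 and 9.04, stellate and basket neurons 8.92, 8.92 and 8.94, and layer 6 neurons 6.11 on each array. The other 13 neuron populations lay between 2.06 and 5.69, and all 17 had means below every astroglial population.

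Of the exporters, Abca1 encodes the transporter that loads lipid-free apolipoprotein E. Astroglia held the 3 highest means, with 9.77, 9.68, 9.59 and 9.40 in cortical astrocytes, 9.54, 9.52 and 9.52 in cerebellar astrocytes and 9.58, 9.43 and 9.24 in Bergmann glia. These groups overlapped. Mixed oligodendroglia came next, at 9.42, 9.11 and 9 in cerebellum and 9.22, 9.02 and 8.74 in cortex. Mature oligodendrocytes were lower in cortex, at 7.57, 7.43 and 7.73, while the cerebellar ones read 8.08, 8.62 and 6.29, so that 1 array stood well under the others. Among neurons 11 of 17 populations reached 6, led by layer 6 neurons at 7.93, 9.01 and 8.75, and Golgi neurons were lowest at 2.48. All 17 neuron populations lay below every astroglial one. The other 2 probe sets for Abca1 lay below 6 in all 24 populations and gave no ordering.

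Abcg1 encodes the transporter that moves cholesterol onto particles already carrying lipid, and its order was the reverse. Every one of the 17 neuron populations, from 8.33 in cholinergic neurons of spinal cord to 11.84 in layer 5a neurons, lay above every astroglial population. Cortical astrocytes read 3.02, 3.41, 3.15 and 3.32, and cerebellar astrocytes 4.2 on each array, both under the minimum. Bergmann glia read 7.60, 7.65 and 7.58, above both astrocyte groups with no overlap. Oligodendroglia, at 9.69 to 10.64, lay among the neurons. A second probe set for Abcg1 gave the same order of classes for astroglia (mean 1.97), below oligodendroglia (5.93) and neurons (5.90), with r = 0.824 over the 24 populations, though only 11 populations reached 6 on it. Abcg1 transcripts not covered by these probe sets were not analysed here.

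**Figure D3:**
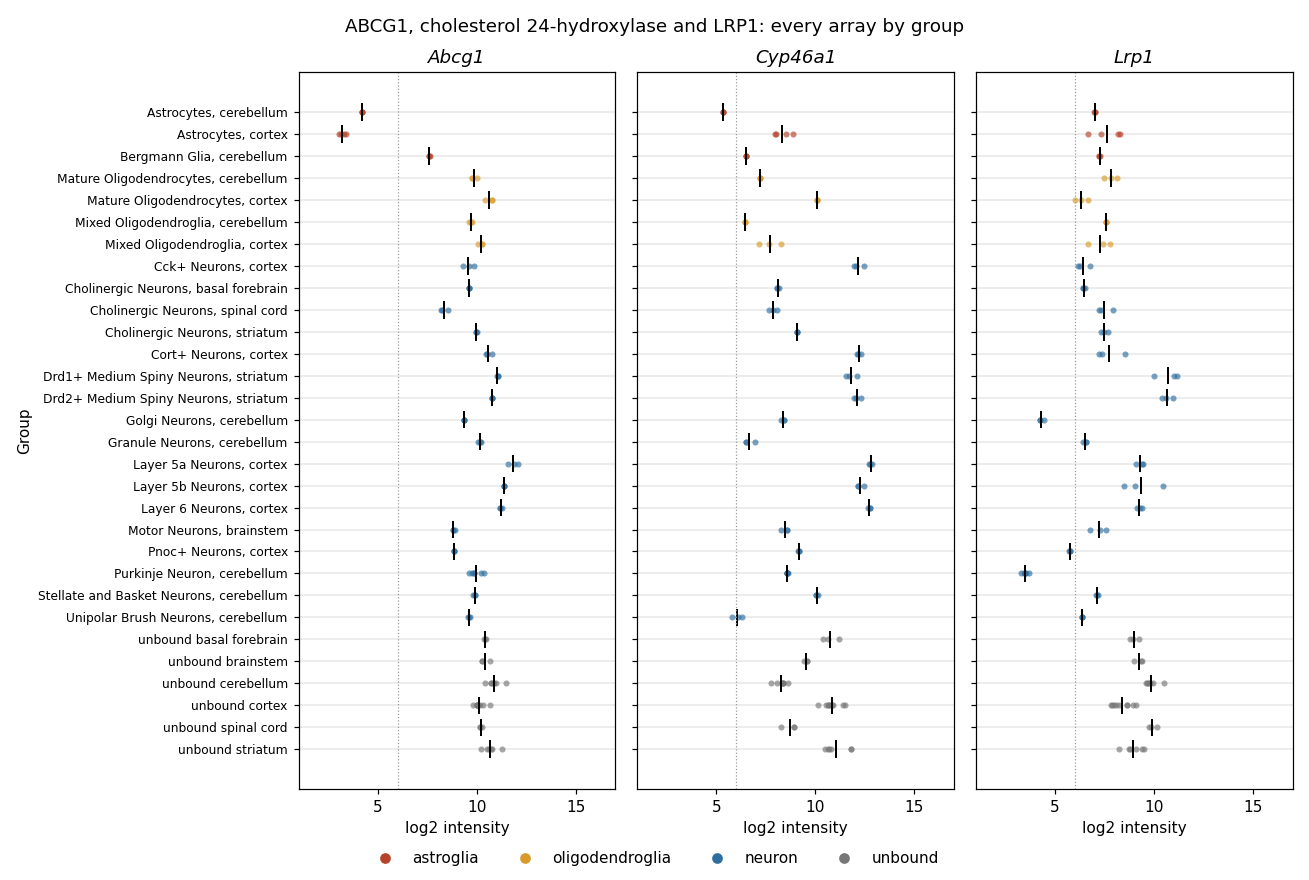
Log2 level of Abcg1, Cyp46a1 and Lrp1 on every TRAP and unbound array, drawn in the same way with the minimum of 6 dotted. Astroglia trail for Abcg1 (3.22 to 7.61). Cyp46a1 is highest in forebrain neurons, up to 12.79, and Lrp1 in medium spiny neurons, up to 10.73.

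Cyp46a1 encodes cholesterol 24-hydroxylase. Its 7 highest populations were all neurons of cortex and striatum, at 11.78 to 12.79, and all 7 lay above every glial population. Layer 5a neurons read 12.88, 12.71 and 12.77 and layer 6 neurons 12.64, 12.77 and 12.77, with no separation between them. Pnoc+ neurons of cortex, at a mean of 9.16, and the cerebellar and cholinergic neurons were lower. Stellate and basket neurons read 10.02, 10.02 and 10.15, the highest of the cerebellar neurons, and unipolar brush neurons 5.80, 6.07 and 6.30, the lowest neurons of all. Cerebellar astrocytes read 5.34 on all 3 arrays, under the minimum, and Bergmann glia 6.50, 6.51 and 6.51. Cortical astrocytes read 8.53, 8.02, 8.88 and 7.94. Mature oligodendrocytes of cortex, at 10.07, 10.08 and 10.07, were the highest glia, below the 7 leading neuron populations and above the means of the other 10. Mixed oligodendroglia of cortex read 7.17, 7.66 and 8.26.

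Lrp1 encodes a large endocytic receptor for particles that carry apolipoprotein E. Its highest levels were in medium spiny neurons, with 11.19, 11.02 and 9.99 in Drd1+ and 10.59, 10.43 and 10.95 in Drd2+ neurons, which overlapped. Layer 5b neurons read 9.05, 8.49 and 10.47, and the other deep cortical layers had means of 9.31 (5a) and 9.27 (6). Astroglia, at 7.01 to 7.62, and oligodendroglia, at 6.32 to 7.81, lay in the middle of the neuronal range. Purkinje neurons were lowest, from 3.30 to 3.69 over 6 arrays, followed by Golgi neurons with a mean of 4.32. Of 20 neighbouring pairs at or above 6, 3 were separated.

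Within a region the contrasts rest on fewer populations. In cortex, 1 of 6 members tested was called between glia (3 populations) and neurons (6), where 14.3% of genes were called: Cyp46a1 was lower in glia by -3.17 (SE 0.98, adjusted p = 0.0332, limma), 9.02-fold. Apoe differed by 3.02 (95% interval -0.80 to 6.84, adjusted p = 0.263) and Lcat by 3.35 (-0.44 to 7.13, adjusted p = 0.21). The Cyp46a1 call was lost without layers 5a and 5b together (0.0788), without cortical astrocytes (0.128) and without mixed oligodendroglia (0.148), and with neither requirement nor minimum (0.0539). In cerebellum, 1 of 2 members tested was called between glia (4) and neurons (5), where 20.3% of genes were called and the median difference of all genes was 0.82: Apoe was 4.99 higher (SE 1.76, adjusted p = 0.0462), at least 17.7-fold. Lcat, at 4.83 (SE 1.75), had an adjusted p of 0.0515. The Apoe call was lost without Golgi (0.144), granule (0.0961) or Purkinje neurons (0.112). Without cerebellar astrocytes or Bergmann glia 0 members were called, but the shares of all genes called in those fits are not given here. The test of whether the difference between glia and neurons itself differs between cortex and cerebellum called no member, the smallest adjusted p being 0.851 for Lrp1 (a difference of differences of -2.72). It called 0 of 12099 genes, 725 of them having an unadjusted p under 0.05.

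Among neurons, Cyp46a1 was higher in cortex than in cerebellum. In cortical against cerebellar neurons 1 of 4 members tested was called, where 16.5% of genes were: Cyp46a1 was 3.94 higher in cortex (SE 0.83, 95% interval 2.22 to 5.65, adjusted p = 0.00199, limma), 15.3-fold, with means of 11.88 and 7.94. This call held in all 16 alternatives, at 3.46 to 4.47. Clu, at 1.67 (adjusted p = 0.0825), was called without unipolar brush neurons (0.0434).

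Between single populations the arrays were the replicates. Cortical against cerebellar astrocytes gave no call among 4 members tested, where 29.1% of genes were called. The intervals were -0.56 to 0.98 for Apoe, -0.25 to 0.65 for Clu, -1.31 to 0.21 for Lcat and -0.48 to 0.64 for Abca1, each under 2-fold but for the lower bound of Lcat. With neither requirement nor minimum, Cyp46a1 was 3.00 higher in cortical astrocytes (adjusted p = 1.58e-21, limma). Bergmann glia against cerebellar astrocytes gave no call among 3 members tested, where 16.7% of genes were called. With neither condition Abcg1 was 3.41 higher in Bergmann glia (adjusted p = 8.79e-34), at least 3.05-fold once the astrocytes were set to 6. The 9 oligodendrocyte genes averaged 11.76 in Bergmann glia and 8.34 in cerebellar astrocytes, and the 8 neuronal genes 9.75 and 8.65. The part of such cells in the Abcg1 difference was not tested. In cortex, mixed against mature oligodendroglia gave 1 call among 5 members, where 50.4% of genes were called and the median of all genes was 0.83: Abca1 was 1.41 higher in the mixed population (SE 0.30, adjusted p = 2.36e-05), 2.66-fold. In cerebellum the only member tested, Lcat, was lower in mixed oligodendroglia by -1.49 (SE 0.41, adjusted p = 0.000904), 2.8-fold, against a background of 51.9% called and a median of 0.83. With neither condition Cyp46a1 was lower in the mixed population of cortex by -2.38 (adjusted p = 3.58e-15), 5.19-fold. In cerebellum, likewise, Clu was lower in the mixed population by -1.15 (adjusted p = 1.78e-05) and Abca1 1.51 higher (adjusted p = 6.91e-06).

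TRAP was next set against unbound RNA of the same tissue, which shows whether a message was concentrated with the tagged ribosomes or depleted. Populations of one tissue were set against the same unbound arrays, so their differences are not independent. The 7 glial populations gave 49 tests, of which 12 were called higher in TRAP and 23 lower. Over all genes 20.3% of such tests were called higher and 38% lower. Where 1 fraction lay under the minimum, its level was raised to 6 and the fold is given as "at least". Apoe rose in all 3 astroglial populations, by 3.34 in cortical astrocytes (adjusted p = 1.55e-17), 2.27 in cerebellar astrocytes (1.08e-08) and 2.15 in Bergmann glia (5.29e-08), limma. Lcat was at least 51.9-fold higher in cortical astrocytes, since unbound cortex lay under the minimum at 3.85. It rose by 3.69 in cerebellar astrocytes, 12.9-fold, and by 4.29 in Bergmann glia, 19.6-fold. In these populations 33%, 16.4% and 19.6% of all genes were called higher. Abcg1 fell in all 3, at least 17.5-fold in cortical and at least 29-fold in cerebellar astrocytes, which both lay under the minimum, and by -3.25 in Bergmann glia. Cyp46a1 fell by -2.48 in cortical astrocytes, at least 4.8-fold in cerebellar ones and by -1.75 in Bergmann glia. In the same order, 31.5%, 48.6% and 39.5% of genes were called lower. The 12 higher calls include Lcat in mature oligodendrocytes of cortex, which is 1.09-fold once unbound cortex is raised to 6. In the 4 oligodendroglial populations Apoe was called higher in 1 and lower in 2, at lowest by -1.5. Lcat was called higher in 2 of them and lower in 1, by -1.26. Each of these lower calls of Apoe and Lcat was lost under another scaling. Abca1 was called higher in cortical astrocytes (1.77) and mixed oligodendroglia of cortex (1.16, where 31.8% of genes were called higher), and lower in mature oligodendrocytes of cerebellum (-2.38, where 53.3% were called lower). In cerebellar astrocytes and Bergmann glia Abca1 lay below unbound cerebellum, at lowest by -0.63, and was not called. Lrp1 was called lower in 6 of 7 glial populations and higher in none, and Cyp46a1 likewise.

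In the 17 neuron populations 111 of 119 tests could be made, the other 8 being of Lcat where both fractions lay under 6. Of these, 19 were called higher and 54 lower, where 17.6% and 30.1% of all tests were. Apoe was called lower in 11 populations. In Golgi neurons, where 70.4% of genes were called lower, as in granule and Purkinje neurons, it lay under the minimum and was at least 94.8-fold lower. It was called higher in 2, layer 5a (3.12) and unipolar brush neurons (1.17), in which 60.7% and 12.1% of all genes were called higher. Lcat was called higher in layer 5a neurons, at least 9.63-fold, and in unipolar brush neurons, by 2.84. It was also called in layer 6 neurons, where 30.8% of genes were called higher, but there it stood at 6.11 and was 1.08-fold above unbound cortex raised to 6. Abca1 was higher in none and lower in 10. Cyp46a1 was called higher in 7, lower in 6 and neither in 4. Abcg1 was called higher in layers 5a (1.71), 5b (1.28, where 36.7% of genes were) and 6 (1.11). All 3 of these calls were lost under quantile normalization (0.67, 0.72 and 0.61). Abcg1 was called lower in 5 neuron populations and neither in 9. Lrp1 was called higher in Drd1+ (1.77) and Drd2+ (1.7) neurons, where 29.8% and 16.8% of genes were. Both calls were lost without further scaling (0.51 and 0.81). In 11 other neuron populations Lrp1 was called lower, and in 4 neither. The median of all genes tested ran from -1.96 in Golgi to 1.31 in layer 5a neurons, and it lay between -0.23 and 0.17 under quantile normalization, under which the member calls were 14 higher and 49 lower in neurons and 13 and 17 in glia. Without further scaling they were 13 and 57 in neurons and 14 and 17 in glia. All genes under quantile normalization gave 34172 higher and 32381 lower of 164657 tests in neurons, and 20134 and 18603 of 69580 in glia. Without further scaling all genes gave 25252 and 53332 of 168823 in neurons, and 18105 and 23045 of 71971 in glia.

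**Figure D4:**
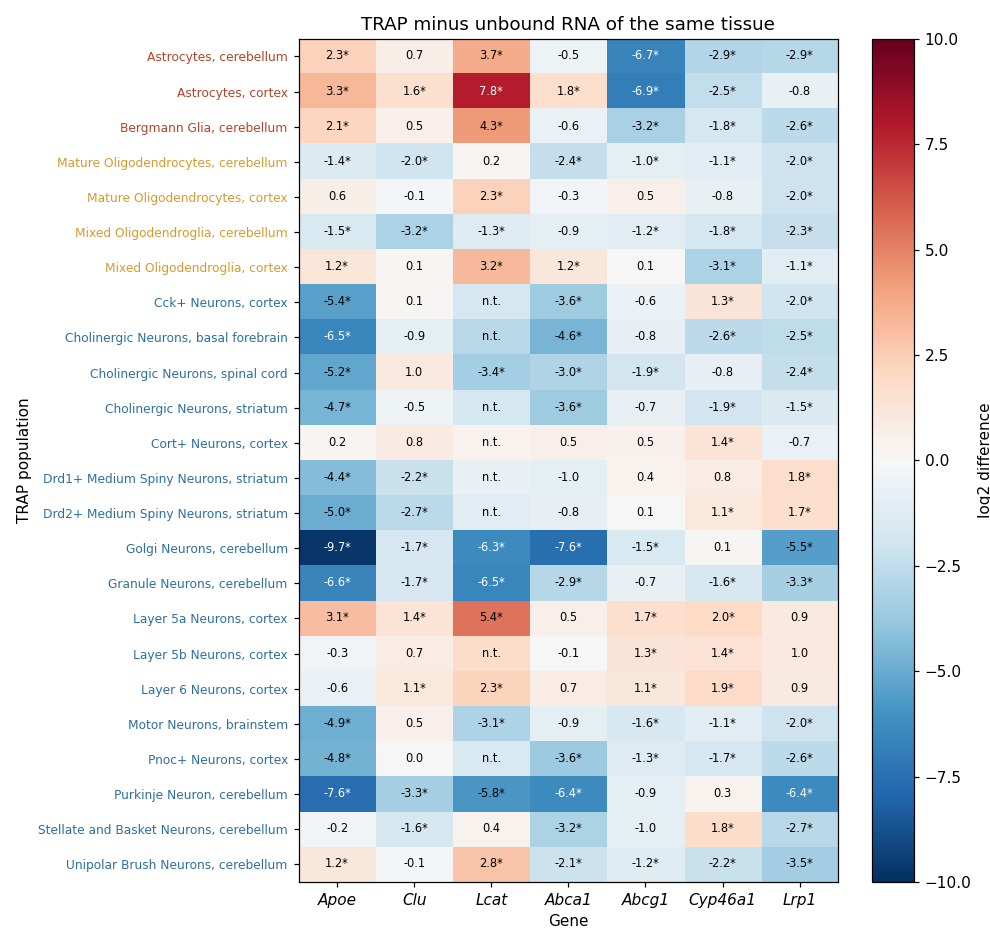
Difference in mean log2 level between TRAP and unbound RNA of the same tissue, for 7 members in 24 populations. A star marks a call (adjusted p under 0.05 and at least 2-fold) and n.t. a pair in which neither side reached 6. Lcat and Apoe are positive in all 3 astroglial populations, Abcg1 and Cyp46a1 negative there, and layer 5a neurons are positive with Apoe at 3.12 and Lcat at 5.41. Levels under 6 enter the plotted differences as measured, so the Lcat values of cortex and the values of groups under 6 are not exact folds.

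Levels in unbound RNA, the tissue RNA left after capture, were compared between tissues. Apoe had a lowest value of 10.98, a median of 11.69 and a highest of 12.66 in cortex, 12.03, 12.41 and 13.47 in cerebellum and 11.78, 12.55 and 13.58 in striatum. Tissue means of Apoe lay between 11.70 and 12.98. The mean of Lcat was 3.85 ± 0.39 (SD, n = 9) in cortex, 4.27 in striatum and 4.88 in basal forebrain, but 7.26 in brainstem, 7.35 in spinal cord and 8.56 ± 0.57 (n = 7) in cerebellum. The cortical arrays, from 3.19 to 4.65, and the cerebellar arrays, from 7.70 to 9.35, did not overlap. In cortex against cerebellum 4 of 7 members were called, where 55.3% of genes were called and the median difference of all genes was -0.93. Lcat was at least 5.89-fold lower in cortex, where it lay under the minimum (adjusted p = 1.1e-30, limma). Abca1 differed by -2.21 (SE 0.19, adjusted p = 3.88e-19), lower in cortex, and Cyp46a1 by 2.56 (SE 0.15, adjusted p = 8.32e-29), higher in cortex. Lrp1, at -1.49, was no longer called without further scaling (-0.90) or under quantile normalization (-0.68), where the medians of all genes were -0.33 and -0.13. Spinal cord against cortex gave 5 calls of 7, where 40.3% of genes were called: Lcat (at least 2.55-fold), Lrp1 (1.55), Apoe (1.27) and Abca1 (1.24) were higher in spinal cord and Cyp46a1 (-2.12) lower. Brainstem and spinal cord gave 0 calls of 7, where 15.3% of genes were called, and the interval farthest from 0 was that of Abca1, -1.42 to -0.22. At an unadjusted p under 0.05, 3 of these 7 members differed, but the share of all genes at that threshold was not determined.

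Astrocyte markers moved with these genes across the neuron populations. The mean of the 10 astrocyte genes ran from 5.06 in Golgi neurons, where 3 of 10 reached 6, to 12.33 in layer 5a neurons, where all 10 lay above unbound cortex, by 2.30 on average. It was 11.56 in unipolar brush, 10.65 in layer 6, 10.50 in Cort+, 10.42 in layer 5b and 9.72 in stellate and basket neurons, and 7.16 at the median of the 17. In oligodendroglia it was 7.69 to 10.30, with at least 8 of 10 at 6 or more. Across the 17 neuron populations its Pearson correlation was 0.949 with Apoe, 0.86 with Lcat, 0.838 with Abca1, 0.631 with Abcg1, 0.547 with Lrp1, 0.468 with Clu and 0.461 with Cyp46a1. Other lists were close to it or higher for some members: the oligodendrocyte list gave 0.812 with Apoe and 0.805 with Abca1, the microglia list 0.72 with Abcg1, the progenitor list 0.727 with Cyp46a1 and the neuronal list 0.783 with Lrp1. These are descriptions over population means that share arrays and normalization. In layer 5a neurons other lists were high as well: the 10 microglia and macrophage genes averaged 10.91, against 5.57 in unbound cortex and 2.10 to 3.85 in astroglia, and the oligodendrocyte genes 12.37. The mean of 5 oligodendrocyte progenitor genes was 10.15 there and 8.66 to 13.07 in oligodendroglia. The mean of 8 vascular genes was highest in layer 5b neurons, at 7.28, and that of 4 choroid plexus genes in cerebellar astrocytes, at 8.95. The part of these cells in the levels of Apoe, Lcat and Abca1 in neurons was not tested. Without layer 5a neurons the differences of Apoe and Lcat between glia and neurons were 4.83 and 5.23.

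The wider pathway was examined through 58 genes of lipid carriers and lipases, receptors, transporters and endosomal export, esterification, oxysterol enzymes and regulators, of which 51 were on the array. The rest of the list was not analysed here. In glia against neurons 20 of them could be tested, 8 were called higher and 0 lower, where 23.9% and 10.4% of all genes were, and 12 were not called, with a median difference of 1.39 against 0.28 for all genes. The largest were Apod, a lipocalin of myelinating glia (3.98, adjusted p = 0.00153, limma), Srebf1, a regulator of fatty acid synthesis (3.80, 0.00212), Npc1, which exports cholesterol from lysosomes (2.86, 0.00504), and Abca8a (2.75, 0.0229). Npc2, the partner of Npc1, and Insig1, Cyp27a1 and Cyp39a1 made up the rest. By role, the calls were 1 of 4 carriers and lipases tested, 0 of 3 receptors, 3 of 4 transporters, 2 of 3 oxysterol enzymes and 2 of 6 regulators, and no esterification gene was tested. In astroglia against neurons 4 of 17 were called higher and 0 lower, where 23% and 7.82% of all genes were, including the phospholipid transfer protein Pltp (4.94, adjusted p = 0.00823), named after its value was seen, and Apoc3 (3.22, 0.00375). In oligodendroglia against neurons 7 of 19 were called higher and 0 lower, where 15.2% and 6.63% of all genes were, led by Apod (5.29, 0.00142). Astroglia against oligodendroglia gave 1 higher, Apoc3 (3.76, 0.0121), and 2 lower, the transporters Abcg2 (-6.06, 0.0173) and Abca2 (-3.23, 0.0346), of 20 tested, where 6.56% and 4.7% of all genes were. The median there was -0.57 against 0.48 for all genes. Levels under 6 entered these pathway differences as measured, so they are not exact folds. Apoc3 averaged 6.57 in astroglia, 2.82 in oligodendroglia and 3.35 in neurons. Its astroglial means were spread widely (SD 2.05), with the highest, 8.86, in cortical astrocytes. Abca2 averaged 3.28 in astroglia and 6.51 in oligodendroglia, and Abcg2 2.61 and 8.67.

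Among themselves, Apoe, Lcat and Abca1 followed each other over the 24 populations, with r = 0.901 for Apoe and Lcat, 0.858 for Apoe and Abca1 and 0.741 for Lcat and Abca1. Abcg1 ran with Cyp46a1 (0.562) and against Lcat (-0.478). The genes whose level over the 24 population means was most like each member's, of 12390 with a level of at least 6 in 1 population, were named by Pearson's r, as a description of means that share arrays and normalization. For Apoe they were Gja1 (0.947), the astrocyte connexin, Ctso (0.945) and Selenop (0.943). For Lcat they were Tlcd1 (0.978), Cldn10 (0.977) and Cyp2d22 (0.975), and for Abca1 Mtmr10 (0.936), Stk38 (0.929) and Zfp275 (0.912). Clu had lower values, with Slc1a4 (0.871), Tapbp (0.826) and Hacd3 (0.817). Abcg1 was most like Tppp (0.931), Sv2a (0.93), a synaptic vesicle protein, and Jakmip3 (0.929). Cyp46a1 was most like Dact2 (0.922), Epha7 (0.92) and Icam5 (0.919), an adhesion molecule of telencephalic neurons, and Lrp1 like Smurf1 (0.917), Tctn3 (0.907) and Prr14l (0.9).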

How the data were processed

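Ribosome-bound and unbound RNA of mouse central nervous system was amplified and hybridised to Affymetrix arrays, per the labels' protocols. The deposited values are linear intensities that the authors background-corrected, normalized and summarised with GCRMA within each group, per the series text and the submitters' processing notes; its version is not given in the sources used here. Of 45101 probe sets, 34945 carried 1 gene symbol, 932 several and 9224 none or were controls. The deposited intensities were put on the log2 scale here, each group was shifted to a common mean of the control probe sets, as the series text recommends, and 1 probe set was kept per gene. The data were tested in R 4.3.3 with limma 3.58.1 (files were read with the package data.table, 1.17.8). Class comparisons used population means as samples, and comparisons of single populations, of tissues and of TRAP with unbound RNA used arrays. Genes with a level under 6 in both groups were left out. Class and population comparisons also required a TRAP level above unbound RNA on the higher side. Benjamini-Hochberg adjusted p-values were taken over all genes tested, and the procedure was tested on simulated data. A p between single populations, between tissues or between TRAP and unbound RNA rests on a spread between arrays that was pooled over all 30 groups. It does not measure the spread of the 3 to 6 arrays of each population compared alone. The members, the marker lists and the pathway list were chosen with earlier results of these data known. Genes named beside the members are the 3 with the highest correlation to each, and pathway genes called in glia against neurons or astroglia against oligodendroglia, with values for the 4 largest in each direction. Alternatives covered scaling, the expression minimum, the probe set rule, the variance trend, a test against a 2-fold bound, arrays in place of population means, the requirement of TRAP over unbound RNA, unbound arrays of the same line, a replicate block, and leaving out layers 5a and 5b, each population or each array. Replicate numbers were checked for pairing of TRAP and unbound arrays over 27 pairs, whose deviations correlated between -0.247 and 0.557, with 13 over 0.1. All 3 pairs were over 0.1 in motor neurons of brainstem (0.44 to 0.557) and cholinergic neurons of basal forebrain (0.277 to 0.429), and no other population with 3 pairs met this.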

Additional observations from a re-analysis of the deposited data

Results flagged for a closer look

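In 4 of 35 combinations of a member with a group of 4 to 10 arrays, the gap of 1 array to its neighbour was large relative to the range of the group, where chance gives about 1 in 20. A ratio to the range can be large where the gap itself is small, as for Clu and Cyp46a1. For Clu, cortical astrocyte replicate 2 read 15.68, above 15.58 to 15.59 on the others. For Abca1, Purkinje replicate 1 read 4.72, while the other 5 arrays ran from 3.26 to 3.79, all under the expression minimum. For Cyp46a1, Purkinje replicate 3 read 8.6, against 8.58 on each of the other 5 arrays. For Lrp1, replicate 1 of unbound cerebellum read 10.52, the highest of 7 arrays with a median of 9.79.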

How the results depend on the processing

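Counts of members called changed with several choices. Without the requirement, 5 members were called between glia and neurons (3 with it), 1 between astroglia and oligodendroglia (0), 0 between cerebellar glia and neurons (1), 1 between cortical and cerebellar astrocytes (0), 2 between Bergmann glia and cerebellar astrocytes (0), and 2 in cortex and 3 in cerebellum between mixed and mature oligodendroglia (1 each). Of all genes tested, 3114 of 12391, 703 of 10959, 901 of 11266, 2830 of 9254, 1901 of 9261, 4374 of 9745 and 3903 of 9930 were then called, in the same order. Under a test against a 2-fold bound the member calls were 2 for astroglia against neurons (4), 0 for cortical and 0 for cerebellar glia against neurons (1 each), 0 and 0 for mixed against mature oligodendroglia, 2 for spinal cord against cortex (5), and 9 higher in TRAP over the neuron populations (19). All genes gave 889 of 6674 tested, 86 of 8792, 154 of 4483, 1952 of 6497, 1421 of 4273, 2535 of 10437 and 15966 of 169467, in the same order. With arrays as samples the member calls were 2 for oligodendroglia against neurons (0), 4 for astroglia against oligodendroglia (0), 5 for cortical glia (1), 2 for cerebellar glia (1) and 2 for cortical against cerebellar neurons (1). All genes gave 3073 of 6533 tested, 2864 of 5808, 4726 of 8792, 2493 of 4483 and 2843 of 7479, in the same order. Without further scaling the member calls were 0 for cerebellar glia, 2 and 0 for mixed against mature oligodendroglia in cortex and cerebellum, and 3 for spinal cord against cortex. All genes gave 924 of 6416 tested, 3367 of 6404, 4401 of 6534 and 3776 of 10497. Cerebellar glia also gave 0 member calls under quantile normalization, with no minimum and with no variance trend, where all genes gave 1301 of 7741, 916 of 5379 and 877 of 4483. With the mean of all probe sets the member calls were 2 for astroglia against neurons, 1 for astroglia against oligodendroglia and 0 for mixed against mature oligodendroglia in cortex. All genes gave 1802 of 5858 tested, 643 of 4798 and 2362 of 4975. Without layers 5a and 5b there were 0 member calls for cortical glia, where all genes gave 1084 of 7481. The causes were not tested.

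Leaving out 1 population or array at a time gave 2 to 4 members for glia against neurons and for astroglia against neurons. It gave 0 to 1 for oligodendroglia against neurons, 0 to 1 for cortical glia and 0 to 2 for cerebellar glia. Ranges were 1 to 2 for cortical against cerebellar neurons and for mixed against mature oligodendroglia in cortex, and 0 to 1 for brainstem against spinal cord. The shares of all genes called in these fits are not given here, so the counts have no background. With a replicate block (correlation 0.099) the TRAP calls stayed at 12 and 23 in glia and 19 and 54 in neurons. No member's call changed. The block used this same correlation for all groups. Deviations of arrays with the same number correlated at 0.44 to 0.557 in brainstem motor and 0.277 to 0.429 in basal forebrain cholinergic neurons. Unchanged calls in these populations thus say little about pairing. In 2 cases a sign turned where a call was involved: Clu in mature oligodendrocytes of cortex went from -0.14 to 1.1 against unbound arrays of the same line alone, and Abcg1 in Golgi neurons from -1.5 to 0.15 under quantile normalization. A further 59 of 2796 values changed sign without being called in either setting, none larger than 0.97.

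Over all genes, counts of calls moved by over 1.5 times as follows. Under the 2-fold bound they went from 2306 to 748 for glia against neurons, 2060 to 889 for astroglia, 1427 to 408 for oligodendroglia, 654 to 263 for astroglia against oligodendroglia, 1259 to 86 for cortical and 910 to 154 for cerebellar glia, 1231 to 289 for cortical against cerebellar neurons, 1711 to 927 for astrocytes, 723 to 290 for Bergmann glia, 3276 to 1952 and 2218 to 1421 for mixed against mature oligodendroglia, 4202 to 2535 for spinal cord against cortex, 1613 to 364 for brainstem, and 29819 to 15966 for tests higher in TRAP of neurons. With arrays as samples they rose to 3730 for astroglia against neurons, 3073 for oligodendroglia, 2864 for astroglia against oligodendroglia, 4726 for cortical and 2493 for cerebellar glia and 2843 for cortical against cerebellar neurons. Bergmann glia gave 1359 without further scaling, 1302 with no minimum, 408 with a minimum of 8 and 1901 without the requirement. Cerebellar mixed oligodendroglia gave 4401 without further scaling and 3903 without the requirement, and astrocytes 2830 without it. Quantile normalization gave 2246 for cortical glia, 3552 for unbound cortex against cerebellum (5727) and 32381 tests lower in TRAP of neurons (50948). Brainstem gave 2603 with no minimum and 962 with a minimum of 8, and cortical against cerebellar neurons 664 without layers 5a and 5b. The number of arrays per population and the share of values at the array minimum limit the precision of low levels.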
